A study of Mus musculus with 10 samples.

Results

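Iron handling in macrophages was described through 10 genes for uptake, transport, storage and export: Tfrc, Slc11a1, Slc11a2, Slc40a1, Fth1, Ftl1, Ncoa4, Cp, Aco1 and Ireb2. They were chosen by symbol from the 54307 genes of the count table, and all 10 were matched to an Ensembl ID and passed the filter on low counts. The cells were mouse bone marrow-derived macrophages, differentiated with 20% L-929 fibroblast-conditioned medium and collected for RNA on day 7. The 5 control libraries came from wild-type mice. The 5 knock-in libraries came from mice with the hWDFY3 allele on both chromosomes (KI/KI), labelled as human WDFY3 overexpression. All mice were males of 6 to 8 weeks, and no further treatment is labelled. Neither the promoter of the human gene nor the genetic background is given in the sources used here. Each group had 5 mice per the labels.

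Macrophages recover iron from engulfed red cells and return it to the blood, and they also withhold iron from microbes inside phagosomes. Transferrin-bound iron enters through the transferrin receptor, surplus iron is kept in a shell of ferritin H and L chains, and iron leaves the cell through ferroportin. The iron regulatory proteins IRP1 and IRP2 bind a hairpin in the RNA, the iron-responsive element. Bound before the coding region it blocks translation, and bound after it the RNA is stabilised. Ferritin is broken down by a selective form of autophagy, with Ncoa4 as its receptor, and WDFY3 is a scaffold protein of selective autophagy. The design sets the knock-in against wild type, and it is read here for RNA of the iron machinery.

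The hairpins are shown because they divide the members into those regulated at translation, whose RNA level need not follow iron, and those regulated through RNA stability. GENCODE M21 transcripts (GRCm38) were searched on the transcript strand for a C, any 5 bases and CAGTGN, followed by bases that pair with all of those 5 (G-U pairs allowed), outside the coding region. Capitals mark the 6-base loop, and the sequences run from 12 bases before it to 11 after it. The full stem was found in 4 of the 10 members and in 0.777% of 22527 coding genes. With 1 unpaired base allowed on the 3′ side, Slc11a2 was also found, against 2.61% of coding genes.
Fth1, 5′ UTR, chr19:9982732-9982760, plus strand: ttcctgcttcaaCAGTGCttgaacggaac
Ftl1, 5′ UTR, chr7:45459779-45459807, minus strand: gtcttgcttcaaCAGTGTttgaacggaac
Slc40a1, 5′ UTR, chr1:45925465-45925493, minus strand: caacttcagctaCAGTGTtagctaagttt
Slc11a2, 3′ UTR of transcript Slc11a2-205, chr15:100395153-100395181, minus strand: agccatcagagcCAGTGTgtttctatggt
Tfrc, first of 4 in the 3′ UTR, chr16:32631219-32631247, plus strand: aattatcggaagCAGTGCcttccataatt
Tfrc, the second, chr16:32631598-32631626, plus strand: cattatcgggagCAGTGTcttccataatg
Tfrc, the third, chr16:32631663-32631691, plus strand: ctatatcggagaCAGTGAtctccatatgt
Tfrc, the fourth, chr16:32631710-32631738, plus strand: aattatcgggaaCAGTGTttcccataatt
The Fth1 and Ftl1 hairpins were the same at 26 of 29 bases, and those of Fth1 and Slc40a1 at 13 of 29. A match is a description of the letters. The table sums the transcripts of a gene, so the Slc11a2 transcripts with and without this hairpin were not separated.

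The libraries held 14.6 to 36.4 M estimated counts. Levels are CPM (counts scaled to 1e6 per library with TMM factors). Macrophage markers were high in all 10 libraries, with Csf1r at 1339 to 1861 CPM and Adgre1 at 808 to 1042 CPM. The groups were separate for Adgre1, at 860 to 1042 CPM in the controls and 808 to 847 CPM in the knock-ins. Its log2 fold change was -0.21 (edgeR unadjusted p = 0.00355, adjusted p = 0.548). Groups were separate for 1.32% of all tested genes. Of 11 erythroid markers, which matter because red cell precursors are rich in Tfrc, all 11 stayed under 1 CPM in every library. Alas2 and Car1 were among those with 0 counts. The summed stromal markers (10 genes) ranged from 2.44 to 22.2 CPM in 7 libraries and reached 152, 158 and 91.2 CPM in control 1, control 4 and knock-in 4.

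No member differed between the genotypes after adjustment. In edgeR's quasi-likelihood test 0 of the 10 members had an adjusted p under 0.05 (smallest 0.795), against 10 of 12411 tested genes (0.0806%). DESeq2 and limma-trend on the deposited log2 values also called 0 members, against 0.268% and 0.0555% of the genes each tested. At an unadjusted p under 0.05 there was 1 member, Slc11a2, and 6.21% of all tested genes. The CPM ranges of the groups overlapped for all 10 members, while they were separate for 1.32% of all tested genes. The median log2 fold change of the members was -0.0068, with 4 positive and 6 negative, and over all tested genes it was -0.0046.

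**Figure D1:**
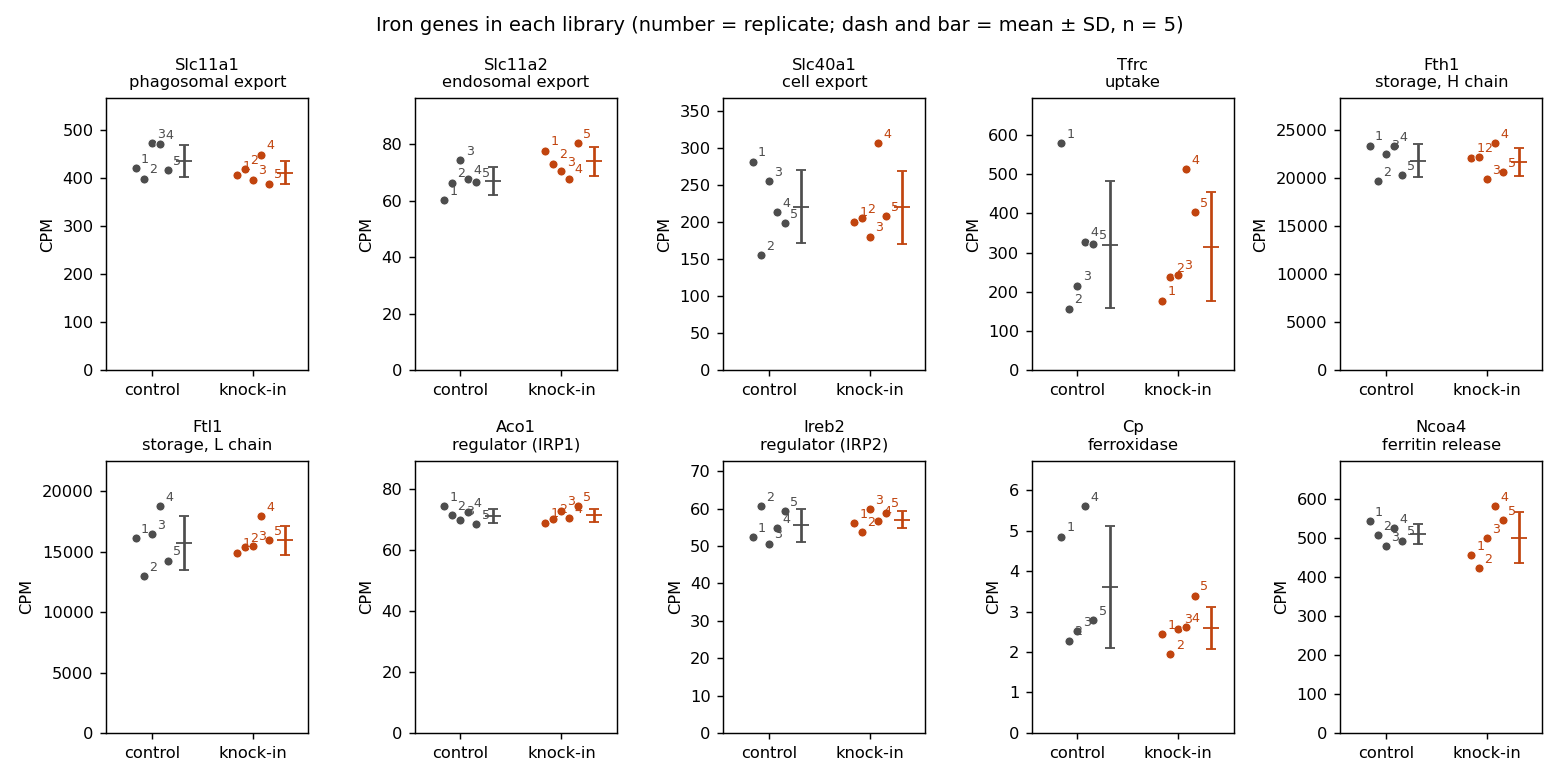
CPM of each of the 10 iron genes (vertical axes, linear from 0) in the 5 control (grey) and 5 knock-in (orange) libraries. Numbers are replicate numbers, and the dash with its bar is the mean ± SD. The groups overlap in every panel, and Tfrc spreads from 157 to 579 CPM across libraries.

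Tfrc, the uptake gene, was the most variable member. Tfrc (ENSMUSG00000022797), the transferrin receptor, was at 579, 157, 216, 328 and 321 CPM in controls 1 to 5 and at 177, 237, 244, 513 and 403 CPM in knock-ins 1 to 5. Control 1 and knock-in 4 were highest and control 2 and knock-in 1 lowest, so each genotype spanned nearly the whole range. The highest library was 3.70-fold above the lowest.

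The group means of Tfrc were 320 ± 162 (control) and 315 ± 139 CPM (knock-in; SD, n = 5 each). The log2 fold change was -0.02 ± 0.412 (SE) with an adjusted p of 0.997 in edgeR. An interval of 2 SE ran from 0.556-fold to 1.74-fold, so a change of moderate size was not detectable with this spread. Without control 1 the log2 fold change was 0.31, and after removal of controls 1 and 4 and knock-in 4 it was 0.20.

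The within-group SD of Tfrc on the log2 CPM scale was 0.669, larger than or equal to that of 99.5% of the 6206 tested genes with above-median expression. The median SD of those genes was 0.108. Control 1 and knock-in 4 were high in both Tfrc and stromal RNA. Control 4 had the highest stromal sum, 158 CPM, with 328 CPM of Tfrc, near the 321 CPM of control 5, where the sum was 7.54 CPM. Knock-in 5 had the lowest stromal sum and the third highest Tfrc level. Dividing cells are known to take up much transferrin. The summed proliferation markers (16 genes) ran from 1122 to 1378 CPM. Control 1 and knock-in 4 had 1233 and 1133 CPM, where Tfrc was highest, and control 2 and knock-in 1 had 1349 and 1292 CPM, where it was lowest. The part of stromal RNA and of proliferation in the Tfrc level was not tested. In bulk RNA, fewer cells of a type and less RNA per cell cannot be told apart.

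Slc11a1 (ENSMUSG00000026177), or NRAMP1, moves iron and other metals out of the phagosome and is a marker of phagocytes. It was at 420, 398, 472, 470 and 416 CPM in controls 1 to 5 and at 406, 418, 396, 448 and 388 CPM in knock-ins 1 to 5. Only 1 knock-in library lay above the control median, though the groups overlapped. Means were 435 ± 33.8 and 411 ± 23.6 CPM (log2 fold change -0.08 ± 0.0639, edgeR adjusted p = 0.858).

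Slc11a2 (ENSMUSG00000023030), or DMT1, carries iron out of endosomes into the cytosol after transferrin uptake. It was at 60.2, 66.4, 74.3, 67.6 and 66.5 CPM in controls 1 to 5 and at 77.7, 73.1, 70.5, 67.8 and 80.3 CPM in knock-ins 1 to 5. Each of the 5 knock-ins exceeded the control median, but control 3 fell inside the knock-in range. The log2 fold change was 0.14 ± 0.0646, from 67.0 ± 5.00 to 73.9 ± 5.10 CPM, with an unadjusted p of 0.0473 and an edgeR adjusted p of 0.795. At an unadjusted p under 0.05, 3.29% of all tested genes were higher in the knock-in, so 1 member of 10 is not read as a result. Its direction held in all 19 alternatives, with an adjusted p from 0.562 to 0.987 and an unadjusted p from 0.0146 to 0.125.

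The deposited log2 values (regularized log) order the Slc11a2 libraries otherwise than CPM does. They were 10.38, 10.48, 10.57, 10.38 and 10.32 in controls 1 to 5 and 10.58, 10.47, 10.55, 10.60 and 10.56 in knock-ins 1 to 5. Knock-in 4 was the highest of the 10 on that scale and the lowest of the 5 knock-ins in CPM. The group difference was similar, 0.13 on the regularized-log scale.

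Slc40a1 varied by 22.4% of its mean in the controls and 22.5% in the knock-ins (SD). Slc40a1 (ENSMUSG00000025993), or ferroportin, the exporter of iron from the cell, was at 281, 155, 255, 213 and 198 CPM in controls 1 to 5 and at 200, 205, 180, 306 and 208 CPM in knock-ins 1 to 5. Knock-in 4, control 1 and control 3 were highest and control 2 lowest. Means were 221 ± 49.4 and 220 ± 49.5 CPM (log2 fold change 0.00 ± 0.181, edgeR adjusted p = 1.00). The interval of 2 SE ran from 0.776-fold to 1.28-fold. Its within-group SD of 0.314 (log2 CPM) was at or above that of 96.8% of the genes with above-median expression. The stromal sum was 91.2 CPM in knock-in 4, 152 CPM in control 1 and 5.81 CPM in control 3. The part of stromal RNA in the Slc40a1 level was not tested.

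Cp (ENSMUSG00000003617) encodes ceruloplasmin, a copper ferroxidase that oxidises exported iron, and it was the least abundant member with 30 to 198 counts per library. It was at 4.85, 2.28, 2.52, 5.61 and 2.79 CPM in controls 1 to 5 and at 2.44, 1.95, 2.58, 2.61 and 3.39 CPM in knock-ins 1 to 5. The control mean was raised by controls 1 and 4, and the other 3 controls lay within the knock-in range. The log2 fold change was -0.49 ± 0.262 (edgeR adjusted p = 0.812). Leaving out 1 library gave -0.62 (without control 2) to -0.26 (without control 4). With controls 1 and 4 and knock-in 4 left out it was 0.05. On the regularized-log scale the groups had means of 5.99 and 5.98. All 10 libraries spanned only 0.40 on that scale, against 2.88-fold in CPM, so the size of this difference is not comparable with that from edgeR. The part of stromal cells in this level was not tested.

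The ferritin chains, which store iron, were by far the most abundant members. Fth1 (ENSMUSG00000024661), the ferritin chain that oxidises iron, was at 23359, 19658, 22523, 23324 and 20292 CPM in controls 1 to 5 and at 22119, 22200, 19874, 23629 and 20608 CPM in knock-ins 1 to 5. Ftl1 (ENSMUSG00000050708), the chain that helps to build the mineral core, was at 16109, 12994, 16443, 18790 and 14272 CPM and at 14939, 15389, 15491, 17946 and 15982 CPM in the same order. Control 2 was lowest for both chains, and controls 1 and 4 and knock-in 4 were among the 4 highest for both.

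The interval of 2 SE for the difference between genotypes ran from 0.901-fold to 1.10-fold for Fth1 (log2 -0.01 ± 0.0706, edgeR adjusted p = 0.991). For Ftl1 it ran from 0.892-fold to 1.15-fold (log2 0.02 ± 0.0926, edgeR adjusted p = 0.983). Together the chains took 3.36 to 4.08% of all counts, with means of 3.77 ± 0.279% and 3.74 ± 0.163% (SD, n = 5 each). The Fth1 to Ftl1 ratio of counts per kb of annotated exons was 0.54 ± 0.0395 in the controls and 0.526 ± 0.0357 in the knock-ins. It ranged from 0.48 to 0.584 over the controls and from 0.496 to 0.572 over the knock-ins, so the groups overlapped.

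Ferritin has many processed copies in the genome, and reads may be divided among them. Annotated transcripts of 1 other gene matched Fth1 and of 21 others matched Ftl1, with at least 100 bases at 90% identity. Not all of the 21 are processed copies. The count table held 11 of them, and those it lacked were short transcripts annotated as miRNA. Only Ftl1-ps1, annotated in M21 with a protein-coding transcript and with 99.6% identity over 910 bases, had more than 100 counts in total. It was at 287 ± 80 and 290 ± 44.9 CPM (log2 0.01, edgeR adjusted p = 0.997). In no library did the copies of Ftl1 in the count table exceed 2.25% of its count. How many of these reads come from Ftl1 itself cannot be told.

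Ncoa4 (ENSMUSG00000056234) carries ferritin to the autophagosome and so releases stored iron. It was at 544, 508, 479, 526 and 494 CPM in controls 1 to 5 and at 457, 423, 500, 583 and 547 CPM in knock-ins 1 to 5. Knock-ins 1 and 2 lay below all controls and knock-ins 4 and 5 above all of them. Means were 510 ± 25.9 and 502 ± 65.1 CPM (log2 fold change -0.02 ± 0.0822, edgeR adjusted p = 0.979). The spread was 13.0% of the mean in the knock-ins and 5.07% in the controls, and the difference between these spreads was not tested.

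Aco1 and Ireb2, the regulators, had the smallest within-group SDs of the members on the log2 CPM scale, 0.0452 and 0.0907. Aco1 (ENSMUSG00000028405) encodes IRP1, which is an aconitase when it holds an iron-sulfur cluster and binds RNA without it. It was at 74.3, 71.2, 69.7, 72.3 and 68.3 CPM in controls 1 to 5 and at 68.8, 70.2, 72.7, 70.3 and 74.2 CPM in knock-ins 1 to 5. The highest library was 1.09-fold above the lowest, and its within-group SD was at or above that of only 1.79% of the genes with above-median expression. The interval of 2 SE for the genotypes ran from 0.94-fold to 1.06-fold (edgeR adjusted p = 1.00).

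Ireb2 (ENSMUSG00000032293) encodes IRP2, which is degraded when iron is plentiful. It was at 52.3, 60.7, 50.6, 54.8 and 59.3 CPM in controls 1 to 5 and at 56.1, 53.8, 59.8, 56.8 and 58.9 CPM in knock-ins 1 to 5. Controls 1 and 3, high for Slc40a1, were the lowest for Ireb2, and control 2, lowest for Slc40a1 and both ferritins, was the highest. Knock-in 4, the highest for Slc40a1 and Fth1, lay inside the control range of Ireb2 at 56.8 CPM. Means were 55.6 ± 4.37 and 57.1 ± 2.39 CPM (log2 fold change 0.04 ± 0.0598, edgeR adjusted p = 0.931). The IRPs are controlled mostly at the protein, which was not measured here.

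**Figure D2:**
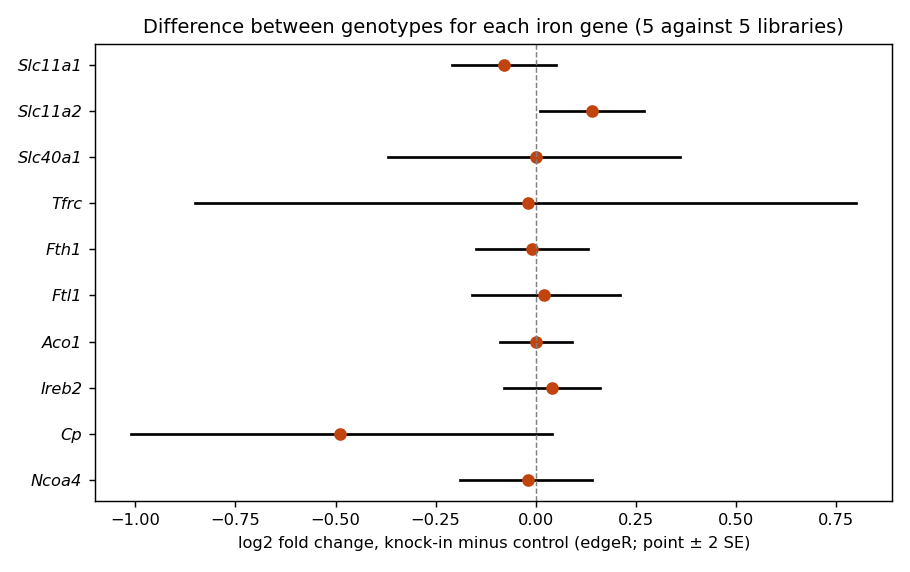
Log2 fold change of each iron gene, knock-in minus control (horizontal axis; point, edgeR estimate; line, ± 2 SE; 5 against 5 libraries). The intervals of Aco1, Ireb2, Fth1, Slc11a1 and Ncoa4 are narrow and include 0, and those of Tfrc (-0.85 to 0.80) and Cp (-1.01 to 0.04) are wide. That of Slc11a2 (0.01 to 0.27) lies just above 0, with an edgeR adjusted p of 0.795.

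Per length, the 2 ferritin chains stood far above the other members. Ftl1 was at 11732 ± 1653 CPM per kb of exon union in the controls and Fth1 at 6293 ± 502 (SD, n = 5). Next came Slc11a1 at 118 ± 9.13, Ncoa4 at 54.5 ± 2.76, Tfrc at 51.7 ± 26.1 and Slc40a1 at 24.5 ± 5.48 CPM per kb. Aco1 at 15.8 ± 0.514, Slc11a2 at 10.5 ± 0.787, Ireb2 at 5.86 ± 0.461 and Cp at 0.378 ± 0.158 CPM per kb were lowest. The order was the same per kb of the longest annotated transcript. For the 2 ferritin chains it holds only for these lengths. Fth1 had more CPM than Ftl1 in every library. The Fth1 transcript used in the search for ferritin copies is shorter than the Ftl1 transcript used there. With those transcripts as lengths Fth1 would stand above Ftl1.

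Over the 10 libraries, Tfrc (25.3 to 93.5 CPM per kb) overlapped both of its neighbours, Ncoa4 (45.1 to 62.3) and Slc40a1 (17.2 to 34.0). Other neighbours did not overlap, except that Aco1 (17.8 to 19.4) and Slc11a2 (13.6 to 18.2) did when the longest transcript set the length. The lengths come from GENCODE M21 and not from the quantification. Slc11a1 stood 11.2 ± 0.754-fold above Slc11a2 per kb in the controls and 9.60 ± 1.14-fold in the knock-ins. The Tfrc to Slc40a1 ratio, uptake over export, was 2.06 ± 0.711 and 2.04 ± 0.606 per kb of exon union. Its size depends on the length used. Per kb of the longest transcript, Tfrc was at 65.4 ± 33.0 and Slc40a1 at 56.1 ± 12.6 CPM in the controls. In the knock-ins these levels were 64.4 ± 28.5 and 56.0 ± 12.6 CPM per kb.

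**Figure D3:**
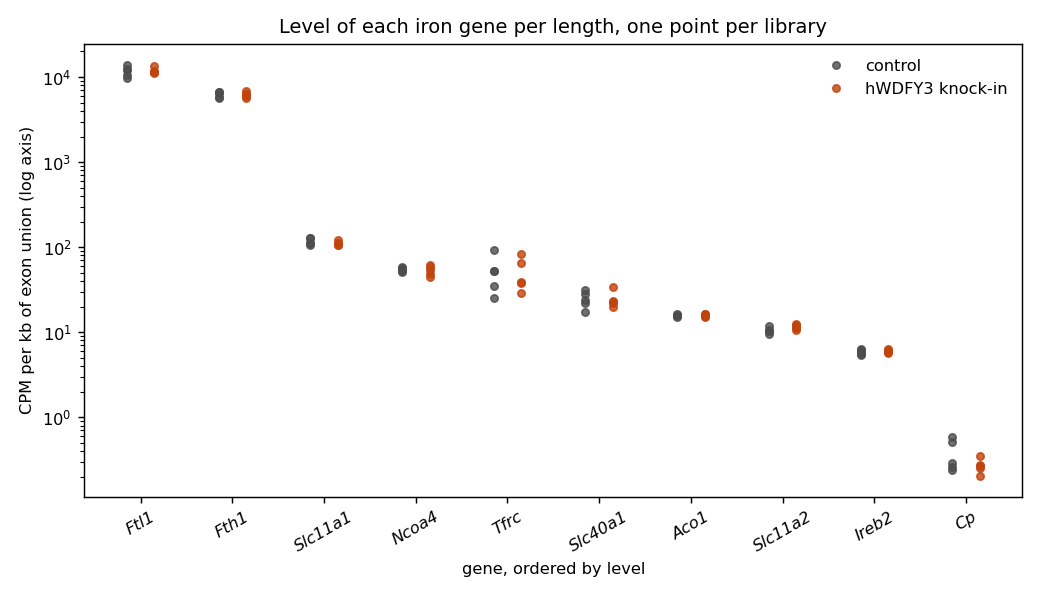
CPM per kb of annotated exon union (vertical axis, logarithmic) of the 10 iron genes, ordered by level, with 1 point per library (grey, control; orange, knock-in). Ftl1 (control mean 11732) and Fth1 (6293) lie far above Slc11a1 (118 CPM per kb), and the points of both genotypes overlap for each gene. The order of Ftl1 and Fth1 depends on the length taken for Fth1.

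Other iron genes were taken from a list of 73, of which 56 passed the low-count filter. In edgeR 0 of them were called (smallest adjusted p 0.70), limma-trend also called 0, and DESeq2 called 1, Pcbp2, where it called 48 genes in all. At an unadjusted p under 0.05, 0 were higher and 3 lower (Slc39a14, Pcbp2 and Sdhb), against 3.29% higher and 2.92% lower over all tested genes. Of the 56, 16 had a positive log2 fold change (48.3% of all tested genes did), and the median was -0.049. This list was made with earlier results of these data known, and nothing particular to it is read from these counts.

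Among iron chaperones and regulators of the IRPs, 2 of 8 were positive. Pcbp2, a chaperone that hands iron to ferritin, was at 284 to 299 CPM in the controls and 263 to 269 CPM in the knock-ins, with means of 289 ± 5.85 and 266 ± 2.84 CPM. It was the 1 gene of the 56 whose groups were separate, as were 1.32% of all tested genes (log2 -0.12 ± 0.0429, edgeR adjusted p = 0.70, DESeq2 adjusted p = 0.0374, range over all alternatives 0.0374 to 0.987). Pcbp1, its close relative, was at 186 ± 28.3 and 186 ± 3.62 CPM. Glrx3, a glutaredoxin that handles iron-sulfur clusters, was at 77.7 ± 10.5 and 68.9 ± 3.61 CPM (log2 -0.17 ± 0.0827). For Glrx3, leaving out 1 library gave -0.22 (without control 5) to -0.11 (without control 1).

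For transferrin and endosomal iron, 2 of 7 were positive. Trf, transferrin itself, was at 1085, 536, 670, 1077 and 599 CPM in controls 1 to 5 and at 665, 624, 631, 913 and 590 CPM in knock-ins 1 to 5. Its 3 highest libraries were controls 1 and 4 and knock-in 4, which also held the most stromal RNA. Steap3, which reduces iron in the endosome, was at 90.5 ± 17.3 and 100 ± 21.2 CPM. Slc39a14, a zinc transporter that also imports iron not bound to transferrin, was at 21.6 ± 2.48 and 18.4 ± 1.91 CPM (log2 -0.23 ± 0.0917, edgeR adjusted p = 0.736). With controls 1 and 4 and knock-in 4 left out its log2 fold change was -0.08, with an edgeR unadjusted p of 0.384. The part of stromal cells in the levels of Trf and Slc39a14 was not tested.

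Genes of heme uptake, breakdown and export had 3 of 11 positive. Hmox1, which opens heme and frees its iron, was at 1220, 593, 847, 1034 and 624 CPM in controls 1 to 5 and at 666, 667, 658, 1316 and 622 CPM in knock-ins 1 to 5. It was highest in knock-in 4, control 1, control 4 and control 3, and these were also the 4 libraries with the most Fth1. Means were 864 ± 268 and 786 ± 297 CPM (log2 -0.14 ± 0.28, edgeR adjusted p = 0.951), and without control 1 the log2 fold change was 0.02. Lrp1, a receptor for heme bound to hemopexin among other ligands, was at 1608 ± 260 and 1631 ± 99.1 CPM.

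**Figure D4:**
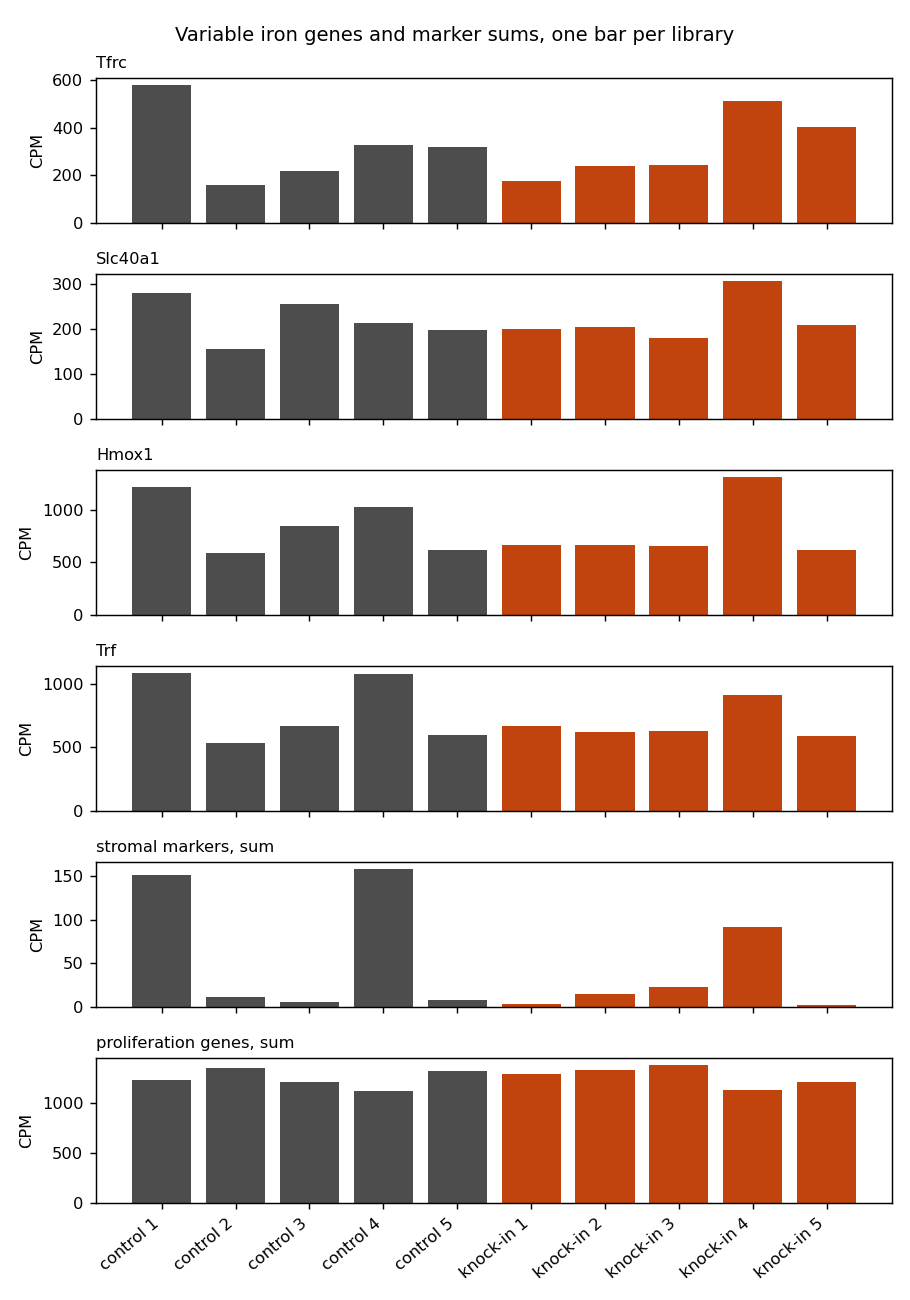
CPM (vertical axes, from 0) of Tfrc, Slc40a1, Hmox1 and Trf, and the summed CPM of 10 stromal and 16 proliferation markers, with 1 bar per library (grey, control; orange, knock-in). Control 1 and knock-in 4 are high for all 4 genes and for stromal RNA, while knock-in 5 has 403 CPM of Tfrc and the lowest stromal sum, 2.44 CPM.

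In mitochondrial iron use, heme synthesis and iron-sulfur cluster assembly, 8 of 24 were positive. Alas1, the first enzyme of heme synthesis, was at 701 ± 199 and 562 ± 141 CPM (log2 -0.32 ± 0.229, edgeR adjusted p = 0.856), with 913, 912 and 759 CPM in control 1, control 4 and knock-in 4 and 376 to 604 CPM in the other 7 libraries. Its log2 fold change was -0.13 when those 3 stroma-rich libraries were left out and -0.14 with the stromal sum as a covariate. It ran from -0.455 without knock-in 4 to -0.205 without control 1, control 4 or knock-in 5, each left out alone. With the replicate block it was -0.31 ± 0.0759 (edgeR unadjusted p = 0.00251, adjusted p = 0.325). The 3 libraries were also those with the most Alas1, and the part of stromal cells in its level was not tested. Hspa9, a mitochondrial chaperone, was at 218 ± 22.6 and 205 ± 2.66 CPM, and Iscu, the scaffold for iron-sulfur clusters, at 56.1 ± 4.35 and 51.3 ± 2.43 CPM.

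Of the other transcripts known for an iron-responsive element, 1 of 5 tested was positive. Sdhb, the iron-sulfur subunit of succinate dehydrogenase, was at 104 ± 4.44 and 95.3 ± 3.87 CPM (log2 -0.13 ± 0.0494, edgeR adjusted p = 0.73). Epas1, which encodes HIF-2α and was named after its values were seen, was at 41.1, 45 and 30.8 CPM in control 1, control 4 and knock-in 4 and at 8.24 to 14.7 CPM in the other 7. The part of stromal cells in this pattern was not tested.

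Ferroxidases and regulators of export were nearly silent, with 1 of 9 tested. Hamp, which encodes hepcidin, the hormone that removes ferroportin from the membrane, had at most 4 counts in a library. Heph, a membrane ferroxidase related to ceruloplasmin, had at most 11, and Slc22a17, the receptor of lipocalin 2, at most 13. Lcn2, which binds microbial iron carriers and is abundant in neutrophils, was at 1.16 ± 1.16 and 0.346 ± 0.345 CPM (log2 -1.88 ± 0.904, edgeR adjusted p = 0.799). Summed neutrophil markers (10 genes) were 7.73 to 49.9 CPM in the controls and 4.83 to 20.9 CPM in the knock-ins. Leaving out 1 library gave a log2 fold change of Lcn2 from -2.45 (without knock-in 2) to -1.21 (without control 4). It was -1.02 with the stromal sum as a covariate. The neutrophil sum was highest in control 4 and control 1, which are stroma-rich, as Lcn2 was. Of its 10 genes, S100a8 reached 15.2 CPM in control 1 and S100a9 reached 14.3 CPM in control 4. Another 3 stayed under 1 CPM in every library, among them Ly6g with at most 0.154 CPM. The part of neutrophils and of stromal cells in the Lcn2 level was not tested.

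**Figure D5:**
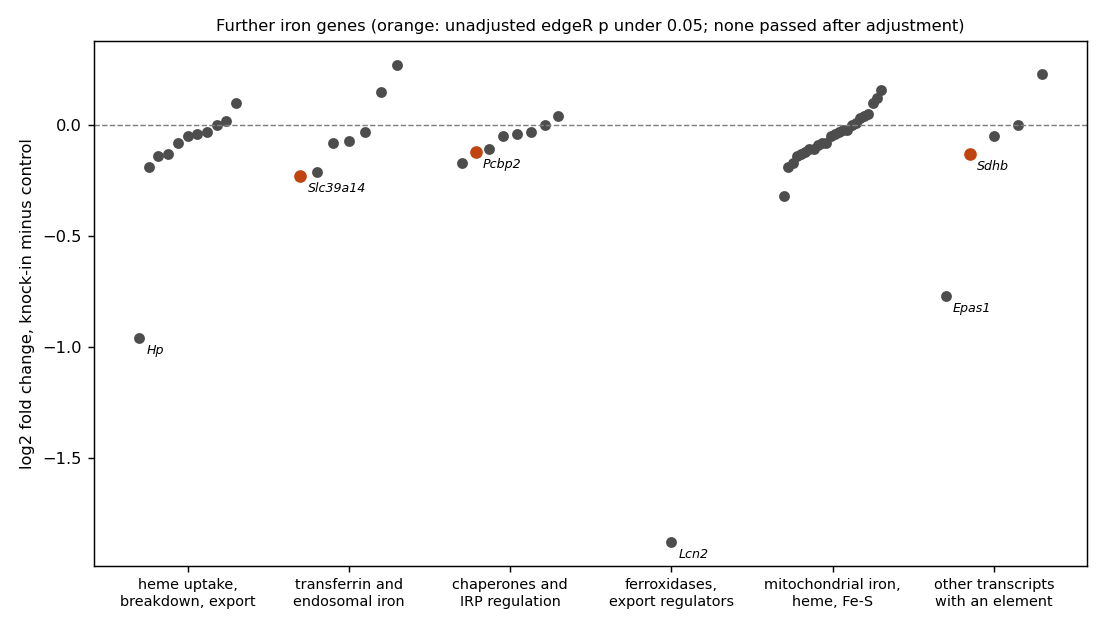
Log2 fold change, knock-in minus control (vertical axis), of the 56 tested genes of the wider iron list, 1 point per gene in 6 groups. Orange points had an unadjusted edgeR p under 0.05 (Slc39a14, Pcbp2 and Sdhb), most points lie close to 0, and Lcn2 at -1.88 rests on few counts.

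Genes whose pattern over the 10 libraries was most like that of a member were ranked by Pearson's r of log2 CPM after subtracting group means. For Tfrc these were Pdgfc (r = 0.961), Man2a1 (0.959) and Timp2 (0.944), and for Slc40a1 Pde12 (0.977), Gpd1 (0.965) and Prkar1b (0.925). For Fth1 they were Ankrd66 (0.996), Prr13 (0.947) and Mindy1 (0.943), and for Ftl1 Arid3a (0.973), Tle3 (0.971) and C2cd2l (0.969). Slc11a1 was followed by Trim41, Chpf2 and Osgin1 (r from 0.965 to 0.974), and Slc11a2 by Tmem8b, Zfp687 and Phrf1 (0.935 to 0.953). For Aco1 they were D17H6S53E, Vps13b and Cyb5b (0.937 to 0.951), and for Ireb2 Gprasp1, Glb1l and Haspin (0.90 to 0.926). Cp was followed by Samd8, Eef2k and C2cd2 (0.935 to 0.957) and Ncoa4 by Zscan2, Cdk15 and Tsc22d3 (0.94 to 0.971). These are descriptions over 10 points that share library, depth and stromal RNA. They were picked as the highest of the 12411 tested genes, after genes with a predicted (Gm) or Rik symbol or without a symbol were left out. Pdgfc was at 3.82 and 2.96 CPM in the 2 groups, while Timp2 was at 441 and 384 CPM. Ankrd66 was at 1.96 and 1.17 CPM, Tmem8b at 1.13 and 1.52 CPM and Cdk15 at 1.27 and 1.19 CPM. The r values of these low genes rest on few counts.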

How the data were processed

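Strand-specific poly(A)+ libraries were read from both ends at 100 bp, aiming at 20 M reads each, per the labels. One deposited table gives estimated counts for Ensembl genes, with Salmon 1.6.0 named in the submitters' processing notes. The other deposited table gives log2 values (regularized log), with DESeq2 1.34.0 named in the same notes. It has 14492 rows for 14409 gene IDs. Annotation release, strand setting and which step used GRCm39 or mm10: not given in the sources used here.

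After rounding, the estimated counts were fitted in edgeR 4.0.16 under R 4.3.3, using TMM normalization, default filterByExpr settings (minimum count 10), robust dispersion and the quasi-likelihood F-test of genotype over all 10 libraries. P-values were adjusted by Benjamini-Hochberg over 12411 genes, with a threshold of 0.05. The SE is the log2 fold change divided by the square root of F, and log2 CPM used a prior count of 2. Symbols came from the log2 table, then GENCODE M21, which held 51482 of the gene IDs. No conversion between builds was made. Counts of libraries within a group differed beyond sampling noise (chi-square per gene between 8.78 and 54.5), and each was used once. P-values rest on the spread between mice, as the labels count them. The fit was tested on simulated data.

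The members and lists were chosen with earlier results of these data known. Named genes are the 10 members, the 6 genes of the wider list with the smallest p, the 2 most abundant of each of its groups, the 3 genes most like each member, and ferritin copies with over 100 counts. One gene that this rule names is not reported here. Epas1 was added later, and Hp is labelled only in a plot. Marker lists for dendritic cells, lymphocytes and mast cells were summed too, at 1.67 to 4.71, 0.91 to 2.89 and 1.18 to 5.69 CPM per library. The alternatives tried comprised RLE factors, upper-quartile factors, DESeq2 1.42.0, limma-trend (limma 3.58.1) on the deposited log2 values, 2 other filters, a replicate block and leaving out each library. A fit that dropped the 3 stroma-rich libraries and one with the stromal sum as covariate were chosen after seeing the data.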

Additional observations from a re-analysis of the deposited data

Results flagged for a closer look

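Slc40a1 in knock-in 4 stood apart from the other libraries of its group, at 306 CPM where the next highest knock-in library had 208 CPM. Its gap to that library was 0.776 of the group's range, above the 0.71 that Dixon's test allows for 5 samples. The 10 members were checked in both groups, which makes 20 checks, and chance gives such a gap in about 1 of 20. Knock-in 4 was also the knock-in library with the most Tfrc, Hmox1 and stromal RNA, and the part of these in the Slc40a1 level was not tested.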

How the results depend on the processing

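In all 19 alternatives 0 of the 10 members were called. Slc11a1, Slc11a2 and Ireb2 kept their direction in each, and of 190 refitted member values 39 had the other sign. The cause was not tested. Other normalizations, filters or tools gave 0.0035 (upper quartile) and 0.014 (limma-trend) for Slc40a1, 0.017 for Fth1 (limma-trend), and -0.0032 (no filter) and -0.0011 (filter of 1 CPM) for Aco1. For Pcbp1 they gave -0.0070 (limma-trend), -0.0022 (no filter) and -5.9e-04 (filter of 1 CPM). The stromal sum as a covariate gave 0.064 for Slc40a1, 0.21 for Tfrc, 0.022 for Fth1, 0.0075 for Ncoa4, 0.034 for Hmox1, -9.6e-04 for Lrp1 and -0.024 for Pcbp1. With controls 1 and 4 and knock-in 4 left out the values were 0.20 for Tfrc, 0.026 for Fth1, 0.046 for Cp, -0.032 for Lrp1, 0.061 for Trf and -0.057 for Pcbp1. Leaving out 1 library gave -0.16 to 0.10 for Slc40a1, -0.27 to 0.31 for Tfrc, -0.045 to 0.019 for Fth1, -0.041 to 0.095 for Ftl1, -0.014 to 0.018 for Aco1 and -0.085 to 0.032 for Ncoa4. It gave -0.41 to 0.023 for Hmox1, -0.040 to 0.098 for Lrp1 and -0.066 to 0.073 for Pcbp1. Same-numbered libraries were not treated as pairs in the main fit. Their deviations correlated at -0.2 to 0.51, and 4 of 10 libraries were closest to their own number. These values do not settle whether the numbers pair the libraries. With the replicate block 12 genes were called in place of 10, 0 of them members, and the log2 fold changes of Slc40a1 and Tfrc were 0.0011 and 0.041. Over all genes DESeq2 called 48, the fit without those 3 libraries called 38, and leaving out 1 library gave 6 to 23. DESeq2 called 1 gene of the wider list, and leaving out 1 library called 0. Per kb of the longest transcript the Fth1 to Ftl1 ratio was 0.657 in the controls and 0.64 in the knock-ins. The ratio was not computed for the shorter transcripts with the hairpins. On the deposited log2 values limma-trend gave -0.11 for Slc39a14, -0.081 for Lcn2, -0.078 for Glrx3 and -0.075 for Sdhb. The SE of Lcn2 was 0.0457 on these values and 0.904 in edgeR, so the sizes of its 2 estimates are not comparable. Cp rested on 30 to 198 counts per library and Lcn2 on at most 98. Lcn2 has no value without the 3 stroma-rich libraries or with the filter of 1 CPM.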
